A study of Mus musculus with 20 samples.

Results

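Sinusoidal endothelial cells line the blood channels of the liver lobule, and 10 genes that mark them were followed across fasted mouse livers that lacked parts of the carnitine shuttle. The genes were taken by symbol from a table of 56748 genes, and the list was drawn up with earlier results of these data known. They were Pecam1, Stab1, Stab2, Lyve1, Kdr, Cdh5, Clec4g, Ehd3, Eng and Tek. All 10 were protein-coding, and all 10 were among the 15669 genes that passed the filter on low counts.

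The 20 libraries came from livers of mice fasted for 24 h, with 4 libraries in each of 5 groups. Control mice carried floxed Cpt1a, Cpt1b and Cpt2 and kept these genes. The mutants had lost, in the liver only, Cpt1a and Cpt1b (Cpt1DKO), Cpt2 (Cpt2KO), Cpt1a, Cpt1b and Cpt2 together (TKO), or Cpt2 and Ppara (Cpt2PparaDKO). CPT1 and CPT2 pass long-chain fatty acids into mitochondria, and PPARalpha, encoded by Ppara, is the receptor that switches on lipid genes in fasting. The labels name neither the Cre driver nor the cell types it reached, and do not give the age or sex of the mice. For the last group the genotype label names only PPAR, and the study's design text names Ppara. Nothing in the labels ties each library to an animal of its own, so p-values measured only the spread between libraries, which may be technical. The 4 comparisons with Control share its 4 libraries and are not independent of each other.

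Unlike the continuous lining of other vessels, the sinusoidal lining is pierced by pores and has no organised basement membrane, so that plasma meets hepatocytes directly. Its cells clear waste molecules from blood through scavenger and lectin receptors (Stab1, Stab2, Lyve1 and Clec4g here). They share with all endothelium the junction proteins encoded by Pecam1 and Cdh5 and the receptors encoded by Kdr, Tek and Eng, which read VEGF, angiopoietin and BMP ligands. Ehd3 encodes a protein of endocytic recycling. In whole-liver RNA, fewer cells of a type and less RNA per cell cannot be told apart.

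The depth of 19 libraries lay between 14129595 and 20273303 counts, and Cpt2PparaDKO replicate 1 reached 36452673. In no group were replicates copies of each other, since the chi-square per degree of freedom of any pair was 11.47 or more. Of the targeted genes, 3 were lower where the labels say they were deleted. Cpt1a had 940 to 1127 CPM (counts scaled to library size with TMM factors) in Control libraries, 146 to 173 in those of Cpt1DKO and 118 to 145 in those of TKO. Cpt2 had 211 to 267 CPM in Control, 114 to 165 in Cpt2KO libraries, 92.5 to 115 in TKO libraries and 28.5 to 39.1 with Ppara also lost. Cpt1DKO replicate 2, which by its label kept Cpt2, had 147 CPM of it, within the Cpt2KO range, beside 284 to 302 in its 3 partners. That library also had the highest Pecam1 (44.5 CPM) and Lyve1 (86.5 CPM) of the 20. Ppara had 189 to 277 CPM in Control and 54.3 to 83.3 CPM in Cpt2PparaDKO. Cpt1b gave no such check: it had 0.293 to 0.763 CPM in Control, 0.620 to 1.11 in Cpt1DKO and 2.38 to 3.03 in TKO. These counts cover whole genes, and transcripts that keep the exons outside a deletion are still counted. By Xist and Y-linked counts, 2 libraries had a female pattern (Cpt2KO replicate 3 and Cpt2PparaDKO replicate 4) and 18 a male one.

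Promoters are shown for Eng and Ehd3 because the 10 genes moved together from library to library, as described below, and a reader may want to see the stretch just before their starts. RefSeq sequence of the older build GRCm38.p6 was matched by symbol for 7 of the 10 genes, and the 250 bases before the start are printed for the genes whose listed start was also the outer end of the gene. The 2 stretches lie outside the annotated gene, with no exon, intron or UTR of that gene in them. Capitals mark GGAA, the core that ETS factors read, and its reverse complement TTCC.
Eng (chr2:32646345-32646594, plus strand): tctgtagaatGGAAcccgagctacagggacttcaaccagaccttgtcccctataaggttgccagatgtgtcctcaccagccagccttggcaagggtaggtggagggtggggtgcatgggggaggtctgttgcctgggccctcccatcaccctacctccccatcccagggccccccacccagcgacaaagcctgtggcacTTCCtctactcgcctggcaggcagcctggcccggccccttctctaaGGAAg
Ehd3 (chr17:73804591-73804840, plus strand): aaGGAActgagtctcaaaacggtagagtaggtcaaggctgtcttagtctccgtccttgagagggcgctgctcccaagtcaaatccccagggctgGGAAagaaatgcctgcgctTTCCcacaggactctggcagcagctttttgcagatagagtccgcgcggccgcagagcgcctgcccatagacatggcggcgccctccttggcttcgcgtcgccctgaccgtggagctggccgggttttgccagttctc
Eng and Ehd3 each held 3 matches to GGAA on either strand. The other 5 stretches held 6 matches in Stab1, 6 in Stab2, 4 in Kdr, 5 in Clec4g and 2 in Tek. Among 32851 RefSeq promoters of the same length, 93.4% held the core at least once, with a median of 3 matches. AGATAA, a site of GATA factors whose first A can be the last of a GGAA core, was in none of the 7 stretches on either strand and in 9.99% of all promoters.

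On the deposited FPKM scale, which divides counts by gene length and lets genes be ranked against each other, Eng was the most abundant of the 10, with 19.4 ± 4.22 FPKM over the 20 libraries (SD). The Eng value may include reads of Fpgs, which overlaps it on the other strand, as described below. Clec4g followed with 16.3 ± 2.96 FPKM, Ehd3 with 11.9 ± 2.72, Lyve1 with 11.3 ± 5.89, Stab2 with 8.99 ± 1.93 and Stab1 with 8.18 ± 1.80. Cdh5 had 6.10 ± 1.81 FPKM, Kdr 5.96 ± 1.80, Pecam1 4.20 ± 1.33 and Tek 2.82 ± 0.787. Some steps of this order held in nearly all libraries and others did not. Clec4g was above Ehd3 in 20 of 20 libraries, Pecam1 above Tek in 20, Kdr above Pecam1 in 19 and Eng above Clec4g in 18. Stab1 was above Cdh5 in 17 libraries and Stab2 above Stab1 in 16, but Ehd3 was above Lyve1 in only 14, Lyve1 above Stab2 in 13 and Cdh5 above Kdr in 11, so these last 3 pairs did not differ beyond their spread. Lyve1 varied most, with an 8.54-fold range between its lowest library (Control replicate 4) and its highest (Cpt1DKO replicate 2). The other 9 genes spanned 1.95-fold (Clec4g) to 3.11-fold (Pecam1).

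**Figure D1:**
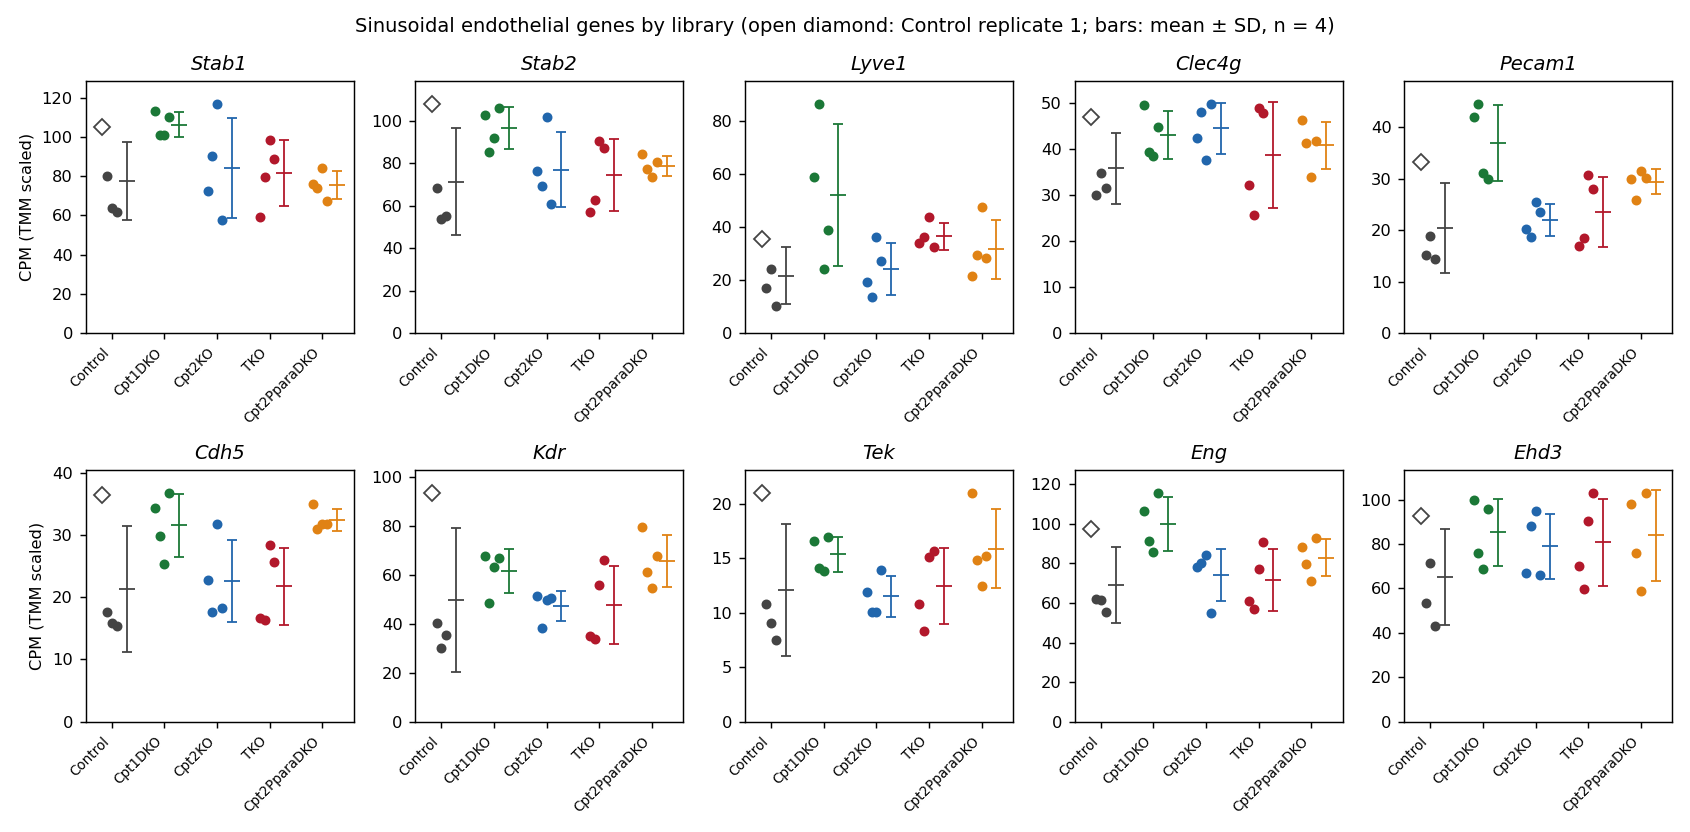
Level of each of the 10 genes in CPM (vertical axes, from 0) in the 4 libraries of each genotype (points), with the mean ± SD beside them. Control replicate 1, the open diamond, lies above the other 3 control libraries in all 10 panels, for example at 93.5 CPM against 30.2 to 40.4 CPM for Kdr.

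Before any comparison, 1 library has to be set apart. Control replicate 1 was above each of the other 3 control libraries for 10 of the 10 genes, by a median of 1.94 times their mean (1.46 for Clec4g to 2.65 for Kdr). Over all 15669 genes tested, 22.8% were above the other 3 controls in that library, and the median ratio was 0.974. Markers of some other cell types, but not all, were high there too. All 12 Kupffer cell and macrophage markers were highest there among controls (summed 570 CPM against 290 to 399.7), and so were 4 of 6 lymphocyte markers, whereas 0 of 7 hepatocyte markers were (80441 CPM against 89640 to 100191). Stellate cell and fibroblast markers summed to 406 CPM there and to 346 to 419 CPM in the other 3, and 3 of 14 were highest there. Whether the cell content of this library differed, and its part in the comparisons with Control, was not tested. Values without it are given beside those of the comparisons with Control that rest on it. The library was picked on the values of these same 10 genes, so leaving it out raises their fold changes against Control by construction. Such values show how far a result rests on 1 library and are no further evidence of a difference.

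TKO libraries fell into a low and a high pair. The mean log2 CPM of the 10 genes was 5.06 in TKO replicate 1 and 5.02 in replicate 2, with none of the 10 genes above their group mean in either. It was 5.65 in replicate 3, with 10 of 10 above, and 5.62 in replicate 4, with 9 of 10 above. Cpt2PparaDKO was the most even group, with this mean between 5.47 and 5.64, while Control ran from 4.71 to 5.85. Cpt1DKO ran from 5.50 to 5.90 and Cpt2KO from 5.17 to 5.55, its highest library being replicate 3, of female pattern.

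**Figure D2:**
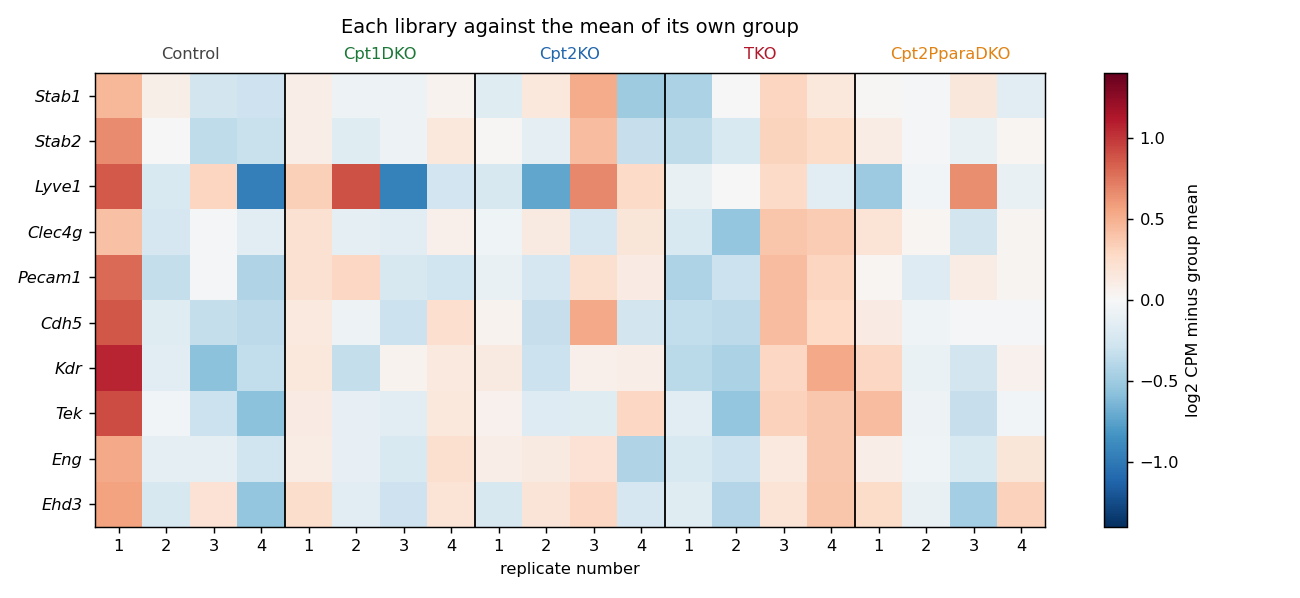
Each library's log2 CPM minus the mean of its own group (colour scale) for the 10 genes (rows) in the 20 libraries (columns, by genotype and replicate number). Control replicate 1 is above its group mean in all 10 rows and TKO replicates 3 and 4 in 10 and 9, while Lyve1 departs from the shared pattern in several libraries.

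With group means removed, the genes tended to rise and fall together over the 20 libraries, Lyve1 least. The Pearson correlation of a gene with the mean of the other 9 was 0.94 for Cdh5, 0.88 for Stab2, 0.86 for Pecam1, 0.82 for Kdr, 0.81 for Eng, 0.79 for Tek, 0.75 for Ehd3, 0.67 for Clec4g and 0.65 for Stab1. Lyve1 had 0.39, and its closest partner was Pecam1 (0.71). The tightest pairs were Stab2 with Cdh5 (0.95) and Kdr with Tek (0.91). These values describe points that share a library, its depth and its scaling. Without Control replicate 1 they were lower, from 0.88 for Cdh5 and 0.79 for Stab2 down to 0.52 for Stab1 and 0.14 for Lyve1. Of 13001 other protein-coding genes, the 10 that followed the mean of the 10 most closely were Ptprb, Oit3, Epb41l2, Msn, Cd55, Ets1, Flt4, Mrc1, Pcdh12 and Plpp1, with correlations from 0.96 to 0.91 (0.83 to 0.92 without Control replicate 1). Ptprb encodes a phosphatase of the endothelial surface that acts on the angiopoietin receptor, Flt4 the VEGFR3 receptor, Mrc1 the mannose receptor of sinusoidal endothelium and macrophages, and Ets1 a transcription factor of the ETS family.

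The same measure ordered whole lists of genes. The median correlation was 0.82 for 10 other sinusoidal endothelial genes, 0.64 for 11 general endothelial genes, 0.57 for the 12 Kupffer cell and macrophage markers and 0.42 for 6 lymphocyte markers. It was 0.059 for 14 stellate cell and fibroblast markers and -0.21 for 7 hepatocyte markers, against -0.016 for all protein-coding genes. The other vascular lists had medians from 0.18 (10 endoglin and BMP genes) and 0.26 (8 VEGF ligands and receptors) to 0.65 (6 periportal endothelial genes). Single genes went down to -0.33 among the other sinusoidal genes and to -0.38 among the general endothelial genes. Without Control replicate 1 the medians were 0.65 for the other sinusoidal genes, 0.46 for the general endothelial genes, 0.50 for the macrophage markers and -0.14 for the hepatocyte markers. Below that lay 5 erythroid transcripts (-0.39), 2 neutrophil markers (-0.34) and 2 platelet markers (-0.29), which had -0.099, 0.017 and -0.18 with that library.

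**Figure D3:**
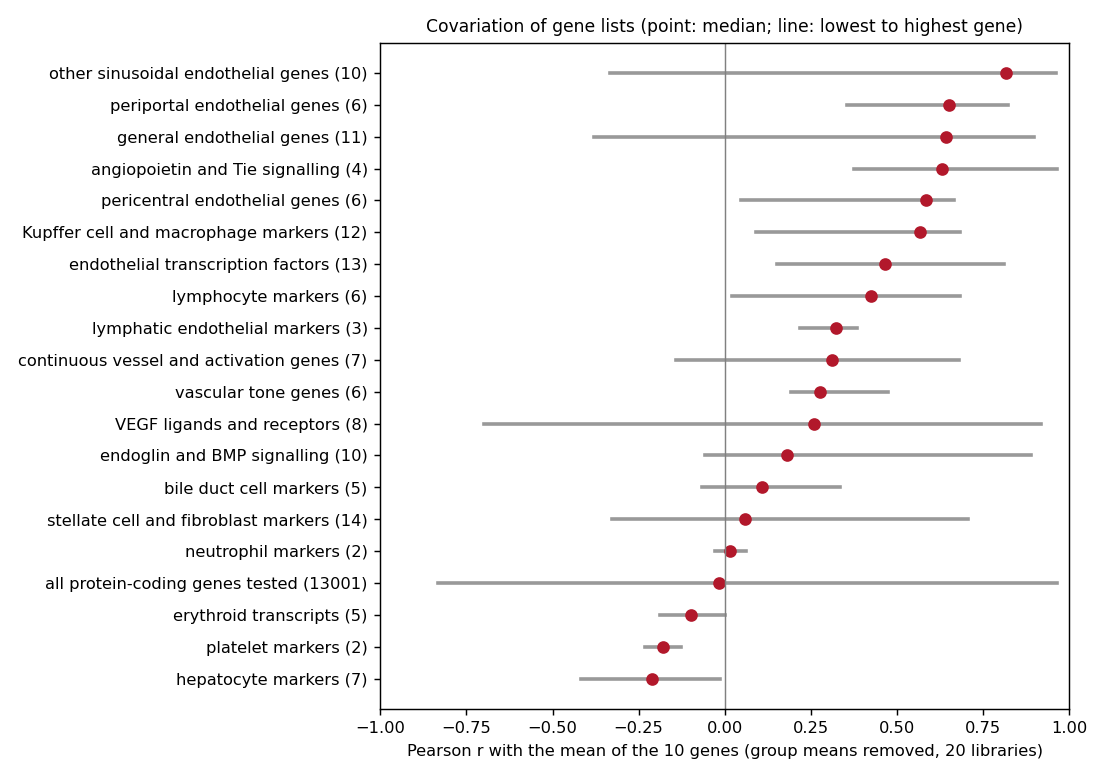
Pearson correlation (horizontal axis) of the genes of each list with the mean of the 10 sinusoidal genes over 20 libraries, group means removed: the point is the list's median, the line its lowest to highest gene and the number in brackets its genes. Other sinusoidal genes have a median of 0.82, and hepatocyte markers one of -0.21, in the 20 libraries.

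In the comparisons with Control, 0 of the 10 genes were called lower in any mutant group, 1 was called higher in 1 of them, and the fitted fold changes were mostly above 0. Calls rest on edgeR's quasi-likelihood test with Benjamini-Hochberg adjustment over the 15669 genes and a threshold of 0.05. In Cpt1DKO against Control, 1 of 10 genes, Pecam1, was called higher, where 2.44% of all genes were called higher and 5.55% either way. All 10 fold changes were above 0 (48.9% of all genes), with a median log2 of 0.44 against -0.0086 over all genes, and 6 had an unadjusted p under 0.05 (21.3% of all genes). In Cpt2PparaDKO against Control, 0 of 10 were called, where 32.5% of all genes were. There 9 of 10 fold changes were above 0 (50% of all genes), the median was 0.38, and 2 genes (Cdh5 and Pecam1) had an unadjusted p under 0.05 (42.6% of all genes).

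In Cpt2KO against Control, 0 of 10 were called by edgeR, where 33.4% of all genes were, and 0 of 10 had an unadjusted p under 0.05 (42.5% of all genes). Their log2 fold changes lay between -0.08 (Kdr) and 0.31 (Clec4g), with a median of 0.11 and 8 of 10 above 0 (49.4% of all genes). In TKO against Control, 0 of 10 were called, where 27.4% of all genes were, and again 0 had an unadjusted p under 0.05 (38% of all genes). The range was -0.06 (Kdr) to 0.75 (Lyve1), with a median of 0.06 and 9 of 10 above 0 (49.6% of all genes). DESeq2 also called 0 of 10 in each of Cpt2KO, TKO and Cpt2PparaDKO against Control, and 3 (Pecam1, Lyve1 and Eng) higher in Cpt1DKO, where it called 4.6% of genes higher. The authors' deposited table held Pecam1, Stab1 and Eng at adjusted p-values under 0.05 in Cpt1DKO (with 8.47% of its genes), Lyve1 in TKO (20.5%), and 0 of the 10 in Cpt2KO (19.3%) or Cpt2PparaDKO (20.5%).

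Without Control replicate 1, the counts changed in 2 of the 4 comparisons. The direction of this change was set by the choice of that library, which the shares of all genes given beside it do not reflect. Leaving out each library in turn gave 0 to 6 calls in Cpt1DKO and 0 to 5 in Cpt2PparaDKO. Of the 10 genes, 6 (Pecam1, Cdh5, Eng, Stab2, Kdr and Lyve1) were then called higher in Cpt1DKO, where 2.04% of 16000 genes were called higher. In Cpt2PparaDKO, 5 (Cdh5, Pecam1, Kdr, Tek and Eng) were called higher, where 13.8% of genes were. In Cpt2KO and TKO the count stayed at 0 of 10, where 28.3% and 23.3% of genes were called either way, although all 10 fold changes were then above 0 in both, from 0.30 (Stab1) to 0.51 (Lyve1) in Cpt2KO and from 0.25 (Stab1) to 1.103 (Lyve1) in TKO. The median log2 fold change of the 10 genes without that library was 0.75 (Cpt1DKO), 0.44 (Cpt2KO), 0.43 (TKO) and 0.70 (Cpt2PparaDKO). With library totals as the only scaling, which moved the median of all genes by 0.48, 8 of the 10 were called higher in Cpt2PparaDKO, where 47.5% of all genes were.

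**Figure D4:**
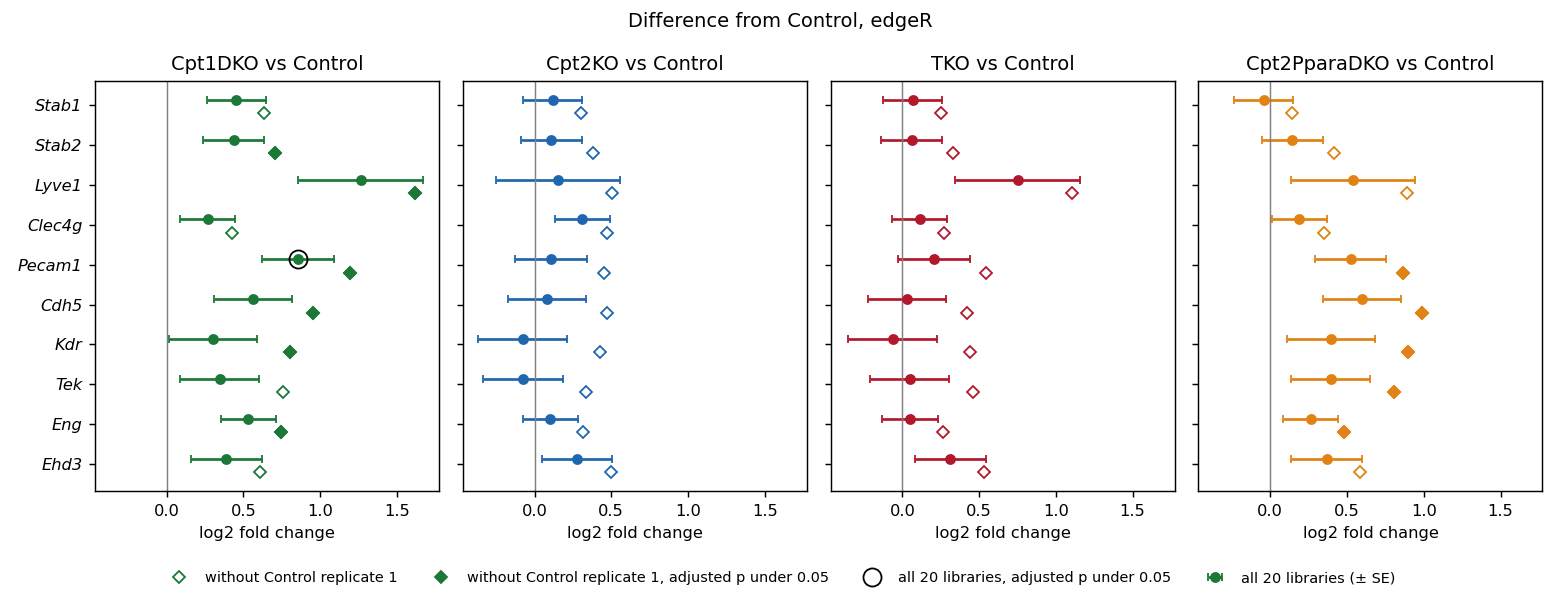
Log2 fold change against Control (horizontal axis) of the 10 genes in each mutant group: circles with bars give the fit to all 20 libraries with its standard error, diamonds the fit without Control replicate 1. Filled diamonds and the ringed circle (Pecam1 in Cpt1DKO) have an adjusted p under 0.05. Every diamond lies to the right of its circle, as follows from leaving out the control library that was highest for these genes. Filled diamonds number 6 in Cpt1DKO, 5 in Cpt2PparaDKO and 0 in Cpt2KO and TKO.

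Among the junction genes, Pecam1 (ENSMUSG00000020717, chr11:106545043-106641454 of GRCm39, minus strand), which encodes the adhesion molecule CD31, was the one called with all 20 libraries. Its 4 Control libraries had 33.2, 15.3, 18.8 and 14.3 CPM and its 4 Cpt1DKO libraries 42.0, 44.5, 31.1 and 29.9 CPM. Cpt1DKO was higher, and the groups overlapped only through Control replicate 1. Pecam1 rose from 20.4 ± 8.74 to 36.9 ± 7.44 CPM (SD, n = 4 each), a log2 fold change of 0.85 (SE 0.23, adjusted p = 0.0359 by edgeR). The call was lost on leaving out Cpt1DKO replicate 1 or 2 or Control replicate 2, 3 or 4 (adjusted p 0.0885 to 0.129). It was also lost without the filter on low counts and with only the compared groups in the fit. Without Control replicate 1 the log2 fold change was 1.20 (adjusted p = 0.00245 by edgeR). The other mutants had 21.99 ± 3.11 CPM in Cpt2KO, 23.5 ± 6.86 in TKO and 29.4 ± 2.41 in Cpt2PparaDKO. In Cpt2PparaDKO the log2 fold change was 0.53 (SE 0.23, adjusted p = 0.0886 by edgeR), and 0.87 without Control replicate 1 (adjusted p = 0.00273).

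Cdh5 (ENSMUSG00000031871, chr8:104828257-104871143, plus strand) encodes VE-cadherin, the adhesive protein of endothelial junctions. Control libraries had 36.5, 17.7, 15.8 and 15.4 CPM and Cpt2PparaDKO libraries 34.9, 31.0, 31.7 and 31.7 CPM. Control replicate 1 was above all 4 of that mutant group, and the other 3 controls were below all 4. The log2 fold change was 0.60 (SE 0.25, adjusted p = 0.0785 by edgeR) with that control and 0.99 (adjusted p = 0.00152) without it. In Cpt1DKO, Cdh5 stood at 31.6 ± 5.07 CPM (log2 fold change 0.56, SE 0.25, adjusted p = 0.208 by edgeR, and 0.95 with adjusted p = 0.0144 without Control replicate 1). It stood at 22.6 ± 6.52 CPM in Cpt2KO and 21.8 ± 6.19 CPM in TKO, beside 21.4 ± 10.1 CPM in Control.

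Of the scavenger receptors, Stab1 (ENSMUSG00000042286, chr14:30860970-30890598, minus strand) and Stab2 (ENSMUSG00000035459, chr10:86677062-86843889, minus strand) encode the large stabilins, which take up modified lipoproteins. Stab1 had 105, 80.1, 63.7 and 61.9 CPM in Control and 113, 101, 101 and 110 CPM in Cpt1DKO. Only Control replicate 1 reached the range of Cpt1DKO, and the log2 fold change was 0.45 (SE 0.19, adjusted p = 0.173 by edgeR). In Cpt2PparaDKO it was -0.04 (SE 0.19, 75.5 ± 6.92 CPM), and 0.14 without Control replicate 1. Stab2 stood at 71.4 ± 25.3 CPM in Control and 96.7 ± 9.73 in Cpt1DKO (log2 fold change 0.44, SE 0.20, adjusted p = 0.207 by edgeR). Without Control replicate 1 the Stab2 difference was 0.71 (adjusted p = 0.0268) and that of Stab1 0.63 (adjusted p = 0.0657). In Cpt2PparaDKO, Stab2 had 78.9 ± 4.66 CPM, a log2 fold change of 0.14 (SE 0.20), and 0.42 (adjusted p = 0.0783 by edgeR) without that library.

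Lyve1 (ENSMUSG00000030787, chr7:110449814-110462446, minus strand) encodes a hyaluronan receptor that lymphatic endothelium and some macrophages also carry. Its libraries had 35.6, 16.9, 24.1 and 10.1 CPM in Control and 58.9, 86.5, 24.3 and 38.8 CPM in Cpt1DKO. The largest fold change of the 10 genes was thus also the least even, with Cpt1DKO replicate 3 inside the control range. The log2 fold change was 1.26 (SE 0.41, adjusted p = 0.0802 by edgeR), against 1.62 (adjusted p = 0.0428) without Control replicate 1 and an adjusted p of 0.0105 by DESeq2. TKO libraries had 33.9, 36.1, 43.8 and 32.4 CPM, close to each other and around the highest control. Their log2 fold change was 0.75 (SE 0.41, adjusted p = 0.188 by edgeR), and the authors' deposited table gave 0.76 with an adjusted p of 0.0373. Lyve1 stood at 24.1 ± 9.78 CPM in Cpt2KO and 31.7 ± 11.1 CPM in Cpt2PparaDKO (log2 fold change 0.54, SE 0.40, and 0.89 without Control replicate 1).

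Clec4g (ENSMUSG00000074491, chr8:3757064-3770651, minus strand), which encodes the lectin LSECtin, had the narrowest range of the 10 over the 20 libraries. Its mean was lowest in Control (35.8 ± 7.67 CPM), then TKO (38.7 ± 11.6), Cpt2PparaDKO (40.8 ± 5.09), Cpt1DKO (43.1 ± 5.24) and Cpt2KO (44.5 ± 5.59), and neighbours in this order differed by less than their SD. Its log2 fold changes against Control were 0.11, 0.19, 0.27 and 0.31 for those mutants in turn, each with an SE of 0.18, and 0.27, 0.35, 0.43 and 0.47 without Control replicate 1. None was called with or without that library. The ranges of all 5 groups overlapped.

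Kdr (ENSMUSG00000062960, chr5:76093487-76139118, minus strand), which encodes VEGFR2, was the gene most marked by Control replicate 1. Control had 93.5, 40.4, 30.2 and 35.2 CPM, Cpt1DKO 67.5, 48.3, 63.1 and 67.0, and Cpt2PparaDKO 79.5, 61.1, 54.5 and 67.8. All 8 libraries of these mutants lay above the other 3 controls and below Control replicate 1. The log2 fold changes of 0.30 (SE 0.29, adjusted p = 0.594 by edgeR) and 0.40 (SE 0.29, adjusted p = 0.309) became 0.80 (adjusted p = 0.0342) and 0.90 (adjusted p = 0.00303) without that library. In Cpt2KO, Kdr had 47.4 ± 6.10 CPM and in TKO 47.7 ± 15.9 CPM.

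Tek (ENSMUSG00000006386, chr4:94627526-94763213, plus strand) encodes TIE2, the receptor of the angiopoietins. It had 21.0, 10.8, 9.01 and 7.49 CPM in Control and 21.0, 14.8, 12.4 and 15.2 CPM in Cpt2PparaDKO. As with Kdr, all 4 mutant libraries were above the other 3 controls, and the log2 fold change moved from 0.39 (SE 0.26, adjusted p = 0.252 by edgeR) to 0.81 (adjusted p = 0.00811) without Control replicate 1. In Cpt1DKO Tek stood at 15.3 ± 1.61 CPM (log2 fold change 0.34, SE 0.26, and 0.76 with adjusted p = 0.0525 without that control). It stood at 11.49 ± 1.85 CPM in Cpt2KO and 12.4 ± 3.52 CPM in TKO, beside 12.1 ± 6.08 CPM in Control.

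Eng (ENSMUSG00000026814, chr2:32536607-32572681, plus strand) encodes endoglin, a co-receptor for BMP9 and BMP10 on endothelium. Control had 97.5, 61.9, 61.4 and 55.6 CPM and Cpt1DKO 107, 91.3, 85.8 and 116 CPM. Only Control replicate 1 fell within the Cpt1DKO range, and the log2 fold change was 0.53 (SE 0.18, adjusted p = 0.0867 by edgeR). It was 0.75 (adjusted p = 0.0174) without that library, and the adjusted p of DESeq2 was 0.0478. In Cpt2PparaDKO, with 83.0 ± 9.59 CPM, it was 0.26 (SE 0.18) with the library and 0.48 (adjusted p = 0.0383) without it. Eng overlaps Fpgs on the other strand, which had 175% of its mean count, and since the strand setting of the counting is not given, reads from the overlap cannot be told apart. Stab1 overlaps Nt5dc2 in the same way, at 9.93% of its count.

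Ehd3 (ENSMUSG00000024065, chr17:74111129-74139089, plus strand), the recycling protein that in liver marks sinusoidal endothelium, was not called in any comparison. Its mean was 65.1 ± 21.7 CPM in Control, and from 78.9 ± 14.8 (Cpt2KO) through 80.8 ± 19.6 (TKO) and 83.9 ± 20.5 (Cpt2PparaDKO) to 85.2 ± 15.1 CPM (Cpt1DKO) in the mutants. Its log2 fold changes against Control were 0.28, 0.31, 0.37 and 0.39 in that order, each with an SE of 0.23, and 0.50, 0.53, 0.59 and 0.61 without Control replicate 1. These were the most alike across the 4 mutants of any of the 10 genes, and the groups overlapped throughout.

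The mutants were also set against each other, where the Control libraries entered only through the filter on low counts, the scaling and the shared estimate of spread. In Cpt2KO against Cpt1DKO, 1 of 10 genes was called lower, where 6.71% of all genes were called lower and 14.1% either way. That gene was Pecam1, with 20.3, 18.6, 25.5 and 23.6 CPM in Cpt2KO, all below the Cpt1DKO libraries given above, and it fell by 0.75 on the log2 scale (SE 0.23, adjusted p = 0.0371 by edgeR, and 0.0174 with only these 2 groups in the fit). That call did not survive the removal of Cpt2KO replicate 1, 2 or 4 or of Cpt1DKO replicate 1 or 2, each taken alone (adjusted p 0.0632 to 0.120). It was also lost without the filter on low counts and with library totals as the only scaling. Pecam1 and Eng had all 4 Cpt2KO libraries below all 4 of Cpt1DKO, which 7.84% of genes had, and the Eng difference was -0.43 (SE 0.18, adjusted p = 0.118 by edgeR). Lyve1 had -1.11 (SE 0.41, adjusted p = 0.0769 by edgeR, 0.0208 by DESeq2, which called Pecam1 and Lyve1 lower where it called 8.38% of genes lower). In all, 1 of 10 fold changes was above 0 (49.7% of all genes), the median was -0.40, and 3 genes had an unadjusted p under 0.05 (28.7% of all genes). The authors' deposited table gave adjusted p-values under 0.05 for Pecam1 (0.00272) and Lyve1 (0.0190), with 7.92% of its genes.

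In TKO against Cpt1DKO, 0 of 10 genes were called by edgeR or DESeq2, where edgeR called 4.65% of all genes. Of the 10 fold changes 0 were above 0 (49.5% of all genes), the median was -0.38, and 3 (Pecam1, Eng and Cdh5) had an unadjusted p under 0.05 (20% of all genes). Their log2 fold changes were -0.65 (SE 0.23, adjusted p = 0.112), -0.48 (SE 0.18, adjusted p = 0.129) and -0.53 (SE 0.25, adjusted p = 0.248). The authors' deposited table had adjusted p-values of 0.0366 for Pecam1 and 0.0464 for Eng, where 6.48% of its genes passed. Stab1 had all 4 TKO libraries below all 4 of Cpt1DKO, as 6.33% of genes did.

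TKO and Cpt2KO differed little in these genes. None of the 10 was called by edgeR or DESeq2, where edgeR called 0.0511% of all genes, and 0 had an unadjusted p under 0.05 (10.8% of all genes). The largest difference was that of Lyve1 (log2 0.60, SE 0.40). In Cpt2PparaDKO against Cpt2KO, again 0 of 10 were called by edgeR or DESeq2, where edgeR called 24.4% of genes, and 0 had an unadjusted p under 0.05 (35.7% of all genes). Cdh5 had the largest difference (0.52, SE 0.25, adjusted p = 0.148), followed by Kdr (0.47, SE 0.29), Tek (0.47, SE 0.26) and Pecam1 (0.42, SE 0.23). Pecam1 and Kdr had all 4 Cpt2PparaDKO libraries above all 4 of Cpt2KO, which 11.4% of genes had.

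The interaction asked whether losing Cpt2 had the same effect with Cpt1a and Cpt1b present (Cpt2KO against Control) as without them (TKO against Cpt1DKO). edgeR and DESeq2 called 0 of 10 genes, where edgeR called 2.7% of all genes. Of the 10 values 0 were above 0 (50.7% of all genes), the median was -0.49, and 2 had an unadjusted p under 0.05 (18.4% of all genes). These were Pecam1 (-0.75, SE 0.33, adjusted p = 0.222) and Eng (-0.59, SE 0.26, adjusted p = 0.220). Without Control replicate 1 the Pecam1 value was -1.10 (adjusted p = 0.0399 by edgeR, with 0.806% of genes called lower). Leaving out that library, picked for its high values of these genes, lowers the interaction by construction.

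The balance among the 10 genes was also compared, by subtracting from each gene's log2 CPM the mean of the other 9 in the same library. Cdh5 stood at -0.91 ± 0.16 in Control (SD, n = 4) and -0.58 ± 0.051 in Cpt2PparaDKO, a difference of 0.33 with no overlap between the groups. It is shown because it was the only separation from Control among the 10 genes in the 4 mutant groups. Every other gene and mutant group overlapped Control, and how often other genes separate on this measure was not computed. Control replicate 1 had -0.73 and so was below that mutant's lowest library (-0.65) as well. Stab1 went the other way, from 1.23 ± 0.24 to 0.77 ± 0.20, with overlap. Lyve1 had -0.94 ± 0.46 in Control, -0.20 ± 0.76 in Cpt1DKO and -0.17 ± 0.37 in TKO. No test was run on these ratios.

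Other genes listed for the same vessels were read from the same fit. In it, 5.55% of all genes were called against Control in Cpt1DKO, and 33.4% (Cpt2KO), 27.4% (TKO) and 32.5% (Cpt2PparaDKO) in the others. Counts come from whole liver, and which cells gave those of the genes here and below was not tested. Rspo3, an R-spondin that endothelium around the central vein secretes to strengthen Wnt signals in hepatocytes, was higher in all 4 mutants. It had 3.37, 3.11, 2.91 and 2.98 CPM in Control, against means of 5.74 ± 0.462 (Cpt1DKO), 6.22 ± 1.83 (Cpt2KO), 5.81 ± 0.487 (TKO) and 7.08 ± 1.91 CPM (Cpt2PparaDKO). Every mutant library was above every control, Control replicate 1 included. Of the 15669 genes tested, 1136 (Cpt1DKO), 2289 (Cpt2KO), 2508 (TKO) and 2475 (Cpt2PparaDKO) were likewise wholly above Control. The log2 fold changes were 0.89, 1.01, 0.90 and 1.19 (SE 0.22 each, adjusted p 0.0213, 0.00121, 0.00381 and 0.000288 by edgeR). Leaving out Cpt1DKO replicate 1 or 2 or Control replicate 2, 3 or 4 took the adjusted p in Cpt1DKO to 0.0503 to 0.0763. It was the only called gene of the 6 pericentral endothelial genes in any of the 4 comparisons with Control.

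S1pr1, the receptor through which endothelium reads sphingosine 1-phosphate, was lower in all 4 mutants. Control libraries had 36.5, 36.5, 31.5 and 32.0 CPM, and the mutant means were 15.1 ± 1.59 (Cpt1DKO), 8.68 ± 2.17 (Cpt2KO), 11.2 ± 2.87 (TKO) and 18.9 ± 3.002 CPM (Cpt2PparaDKO). No mutant library reached a control, as was so for 1507, 2554, 2717 and 3021 of the 15669 genes in the same order of groups. It fell by 1.17, 1.97, 1.61 and 0.86 on the log2 scale in that order (SE 0.18 to 0.19, adjusted p 0.000748, 1.88e-07, 3.19e-06 and 0.000953 by edgeR). The interaction was 1.54 (SE 0.26, adjusted p = 0.00249), and S1pr1 was higher in Cpt2PparaDKO than in Cpt2KO by 1.12 (SE 0.18, adjusted p = 0.000122). With library totals as the only scaling, the difference of Cpt2PparaDKO from Control was -0.38 (adjusted p = 0.0849). Hepatocytes and other cells can carry S1pr1 too, and their part was not tested. The other 5 vascular tone genes, among them Nos3 and Edn1, had 0 calls.

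**Figure D5:**
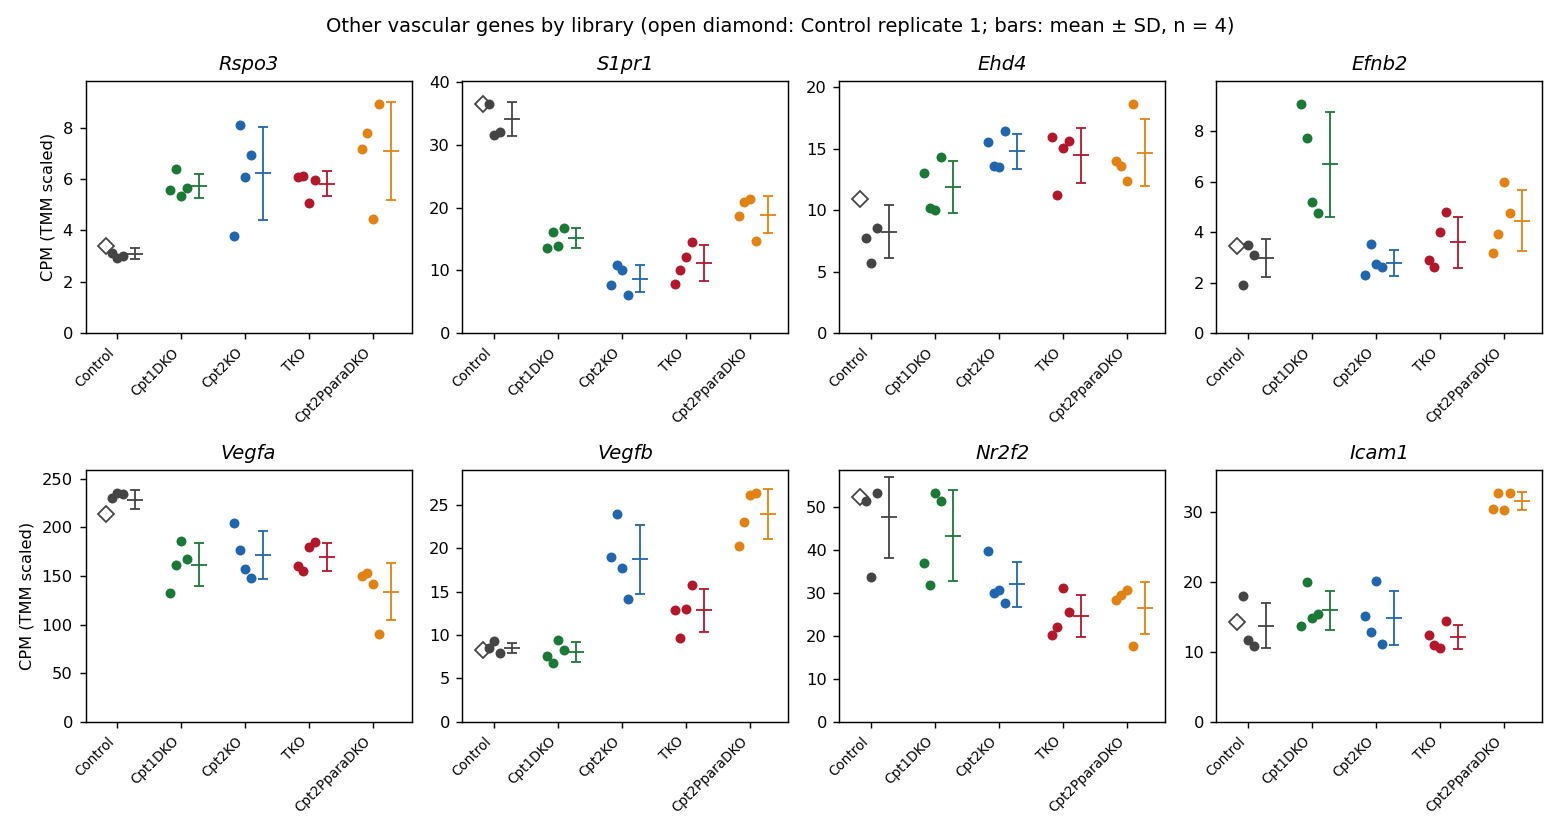
Level in CPM (vertical axes, from 0) of 8 other vascular genes in the 4 libraries of each genotype (points), with mean ± SD. Rspo3 is above Control in every mutant library and S1pr1 below, with Control replicate 1 (open diamond) near the other controls for both.

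Of the 3 other EHD genes on the list, paralogs of Ehd3, 2 were called. Ehd4 rose from a control mean of 8.22 ± 2.15 CPM to 14.8 ± 1.45 (Cpt2KO), 14.4 ± 2.20 (TKO) and 14.7 ± 2.74 CPM (Cpt2PparaDKO). The log2 fold changes were 0.84, 0.81 and 0.83 (SE 0.18 each, adjusted p 0.0013, 0.00229 and 0.00153 by edgeR). All libraries of these mutants were above Control, as for 2289, 2508 and 2475 of the 15669 genes in turn. Ehd2 was higher in Cpt2PparaDKO (0.82, SE 0.26, adjusted p = 0.0218), a call lost without Cpt2PparaDKO replicate 4 or Control replicate 1 (adjusted p 0.0542 to 0.0781). Among the 10 other sinusoidal genes, these and 2 more were the only ones called. Oit3, a secreted protein of sinusoidal endothelium, was higher in Cpt1DKO (25.2 ± 11.2 to 44.8 ± 6.49 CPM, log2 0.83, SE 0.22, adjusted p = 0.0330), and Dab2, a clathrin adaptor of endocytosis, in Cpt2PparaDKO (0.67, SE 0.24, adjusted p = 0.0362). The Oit3 call was lost without Cpt1DKO replicate 1, 2 or 4 or Control replicate 2, 3 or 4 (adjusted p 0.0722 to 0.104), and that of Dab2 without Cpt2PparaDKO replicate 1 or 2 or Control replicate 2, 3 or 4 (0.0692 to 0.113).

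Of the VEGF ligands, Vegfb was called higher and Vegfa lower in 3 mutants. Vegfb rose from a control mean of 8.47 ± 0.593 CPM to 18.7 ± 4.004 (Cpt2KO), 12.8 ± 2.51 (TKO) and 23.9 ± 2.91 CPM (Cpt2PparaDKO), with log2 fold changes of 1.14, 0.60 and 1.50 (adjusted p 2.18e-05, 0.0091 and 1.5e-06 by edgeR). Vegfb binds FLT1 and not KDR. Vegfa, the ligand of KDR, fell from 229 ± 10.02 CPM to 172 ± 24.98, 170 ± 14.4 and 134 ± 29.4 CPM in the same mutants (log2 -0.41, -0.43 and -0.77, adjusted p 0.0361, 0.0363 and 0.000499 by edgeR). In Cpt1DKO Vegfa had 162 ± 22.2 CPM (log2 -0.50, SE 0.15, adjusted p = 0.0514). In Cpt2KO the Vegfa call was lost without Cpt2KO replicate 2, 3 or 4 or Control replicate 2, 3 or 4 (adjusted p 0.0584 to 0.112), and in TKO without any of the 7 libraries other than Control replicate 1 (0.0530 to 0.0960). Nrp1, a co-receptor for VEGF, fell by 0.63 in Cpt2KO (SE 0.19, adjusted p = 0.0153) and by 0.80 in Cpt2PparaDKO (SE 0.19, adjusted p = 0.00304). The Cpt2KO call was lost without Cpt2KO replicate 2 or Control replicate 1 or 4 (adjusted p 0.0504 to 0.0657). With library totals as the only scaling, Vegfa and Nrp1 had adjusted p-values from 0.0807 to 0.357 in these comparisons, with the same direction. The other 5 of the 8 tested VEGF ligands and receptors were not called.

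On the BMP side, which Eng serves, Id3 and Id1, genes that BMP signals switch on, were higher in Cpt2KO. Id3 went from 46.0 ± 15.1 CPM in Control to 109 ± 17.96 (log2 1.24, SE 0.26, adjusted p = 0.00129 by edgeR) and was lower again in Cpt2PparaDKO than in Cpt2KO (-1.16, adjusted p = 0.00313). Id1 had a log2 fold change of 0.90 (SE 0.29, adjusted p = 0.0207), lost without Cpt2KO replicate 1 or Control replicate 4 (0.0532 to 0.0966). Hepatocytes express both Id genes too, and their part was not tested. Bmp10, a ligand of endoglin, was higher in Cpt2PparaDKO (4.66 ± 0.695 to 8.03 ± 1.23 CPM, log2 0.78, SE 0.23, adjusted p = 0.0137). In Cpt1DKO and TKO, 0 of the 10 genes of that list were called. None of the 4 angiopoietin and Tie genes (Angpt1, Angpt2, Tie1 and Ptprb) was called in any mutant with all 20 libraries. Ptprb had log2 fold changes of 0.71, -0.06, 0.24 and 0.28 in Cpt1DKO, Cpt2KO, TKO and Cpt2PparaDKO. These rest on Control replicate 1, which had 181 CPM of it against 61.3 to 79.3 CPM in the other 3 controls, where Cpt2KO libraries had 71.4 to 118 CPM.

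Transcription factors were mostly not called. Of 13, Nr2f2, which encodes the venous factor COUP-TFII, fell from a control mean of 47.7 ± 9.40 CPM to 32.01 ± 5.34 (Cpt2KO), 24.7 ± 4.90 (TKO) and 26.6 ± 6.06 CPM (Cpt2PparaDKO) (log2 -0.58, -0.95 and -0.85, adjusted p 0.0313, 0.00147 and 0.00294 by edgeR). The Cpt2KO call was lost without Cpt2KO replicate 2, 3 or 4 or Control replicate 1, 2 or 4 (adjusted p 0.0697 to 0.0944). With library totals as the only scaling Nr2f2 had -0.37 (adjusted p = 0.150) there and -0.38 (adjusted p = 0.111) in Cpt2PparaDKO. Sox7 was lower in Cpt2KO (-0.92, SE 0.34, adjusted p = 0.0401), a call lost without any Cpt2KO library or Control replicate 1 or 2 (0.0519 to 0.199), with a log2 fold change of -0.61 without Control replicate 1. Of 6 periportal genes, 1 was called: Efnb2, the arterial ligand ephrin-B2, was higher in Cpt1DKO (2.97 ± 0.739 to 6.68 ± 2.07 CPM, log2 1.16, SE 0.27, adjusted p = 0.0148), lost without Cpt1DKO replicate 1 or 2 or Control replicate 2 (0.0532 to 0.0742).

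Of 7 genes of continuous vessels and of endothelial activation, 3 were called in Cpt2PparaDKO, where 32.5% of all genes were, 2 in Cpt2KO (33.4%), and 0 in Cpt1DKO (5.55%) and TKO (27.4%). Icam1, which binds leukocytes, had 31.5 ± 1.34 CPM against 13.7 ± 3.20 in Control (log2 1.20, SE 0.18, adjusted p = 3.8e-05 by edgeR) and was also higher than in Cpt2KO (1.09, SE 0.18, adjusted p = 0.000102). Plvap, a protein of vessel-wall diaphragms, had 52.2 ± 8.78 against 33.3 ± 5.16 CPM (0.65, SE 0.15, adjusted p = 0.0021), and in Cpt2KO 46.3 ± 7.10 CPM (0.48, adjusted p = 0.0175, and 0.0539 without Control replicate 4). Esm1 was called in Cpt2PparaDKO (adjusted p = 0.0440), but 1 library gave it, with 7.62 CPM against 0.155 to 2.54 in the other 3. That call was lost without Cpt2PparaDKO replicate 2 or 3 or any control (adjusted p 0.0605 to 0.354), and its log2 fold change went from 2.10 to 0.84 without Cpt2PparaDKO replicate 3. Selp was lower in Cpt2KO (-0.78, SE 0.28, adjusted p = 0.0350), lost without Cpt2KO replicate 1 or 3 or Control replicate 1, 2 or 3 (0.0729 to 0.122). Of 11 general endothelial genes, Robo4 was higher in Cpt1DKO (0.83, SE 0.21, adjusted p = 0.0225) and Cd93 in Cpt2PparaDKO (1.02, SE 0.31, adjusted p = 0.0153). Without Control replicate 4 the Cd93 call was lost (0.0504), and Robo4 was lost without Cpt1DKO replicate 1, 2 or 4 or Control replicate 2, 3 or 4 (0.0516 to 0.0757).

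Markers of other liver cells moved in the same comparisons. Hepatocyte markers were called lower for 6 of 7 genes in Cpt2PparaDKO (17.6% of all genes), 4 in TKO (14.4%), 3 in Cpt2KO (17.2%) and 0 in Cpt1DKO (3.1%). Summed over the 7 genes, libraries of these groups had 36382 to 43830, 36293 to 65424, 43041 to 72361 and 79267 to 88319 CPM, beside 80441 to 100191 CPM for Control. Of 12 Kupffer cell and macrophage markers, Cd68, a lysosomal protein, was higher in Cpt2KO, TKO and Cpt2PparaDKO (log2 2.25, 2.01 and 3.14), Clec4f was lower in TKO (-0.58, adjusted p = 0.0442 by edgeR, 0.0656 to 0.155 without TKO replicate 1 or 2 or Control replicate 1, 2 or 3), and the rest were not called. The list summed to 528 to 634 CPM in Cpt2PparaDKO, 204 to 384 in TKO, 261 to 651 in Cpt2KO and 294 to 386 in Cpt1DKO, beside 290 to 570 CPM for Control. Stellate cell and fibroblast markers were called higher for 8 of 14 genes in Cpt2PparaDKO (14.9% of all genes), 0 in TKO (13%), 3 in Cpt2KO (16.2%) and 2 in Cpt1DKO (2.44%). Their summed levels were 514 to 583, 407 to 471, 468 to 648 and 463 to 547 CPM in these groups, beside 346 to 419 CPM for Control. Of 3 tested lymphatic markers only Prox1, also a hepatocyte gene, was called (lower in Cpt2PparaDKO, -0.72, adjusted p = 0.0189, 0.0535 to 0.0610 without Cpt2PparaDKO replicate 4 or Control replicate 2), and Pdpn had at most 9 counts in any library. Of 5 bile duct markers, 2 (Sox9 and Spp1) were lower in Cpt2KO and TKO and 1 (Sox9) in Cpt2PparaDKO. The Spp1 call in TKO was lost without TKO replicate 1 or 2 or Control replicate 2 (adjusted p 0.0529 to 0.0656), without the filter on low counts (0.0667) and with library totals (0.0568), as was that of Sox9 in Cpt2PparaDKO with library totals (0.0984). Tested markers of lymphocytes (6), neutrophils (2) and platelets (2) had 0 calls against Control, and of 5 erythroid transcripts 2 (Hbb-bs and Hba-a1) were higher and 1 (Alas2) lower in Cpt2KO. Both globin calls were lost without Cpt2KO replicate 2 or 4 or Control replicate 2 or 3 (adjusted p 0.0859 to 0.134), and that of Alas2 without Cpt2KO replicate 2 or 3 or Control replicate 1, 2 or 4 (0.0588 to 0.0946). The part of these shifts in the values of the 10 genes was not tested.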

How the data were processed

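Liver RNA of 20 libraries was analysed, 4 in each of 5 genotype groups taken from the sample titles. Reads were aligned with HISAT2 to GRCm39, per the submitters' processing notes (version, counter, strandedness, gene models: not given in the sources used here). The authors deposited raw counts per gene, and FPKM values in which those counts are divided by gene length and by a scaled library size, per the file headers and values. The authors' deposited tables of comparisons hold log2 fold changes and adjusted p-values (test: not given in the sources used here). Signs were turned where such a table had the groups in the other order.

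Genes were kept by edgeR's filter with a minimum count of 10, which left 15669 of 56748 genes. Counts were fitted in edgeR 4.0.16 (limma 3.58.1, R 4.3.3) with TMM scaling, 1 mean for each group over all 20 libraries and the quasi-likelihood test. The interaction is the difference TKO minus Cpt1DKO less the difference Cpt2KO minus Control. CPM used TMM library sizes, and log2 CPM for correlations and ratios a prior count of 0.5. Alternatives were DESeq2 1.42.0, other scalings, no filter, a replicate block, fits to the compared groups only, and leaving out libraries. The procedure was tested on simulated data, with changes put into Cpt2KO against Control. It recovered 59.6% of 99 genes changed by a log2 of 1 and 84.7% of 98 changed by 2. Smaller changes, as most of the 10 genes had, were not simulated, so a gene not called may still differ.

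The 10 genes and all other lists were chosen with earlier results of these data known. From each other list, up to 4 genes called against Control with a mean of at least 1 CPM were named, by size of change, or the most abundant gene where none was called. The 4 targeted genes and the 10 protein-coding genes that followed the 10 most closely were named as well. With 4 libraries a group, precision is set by the spread between them. Replicate numbers were not used to pair libraries in the main fit, as the sensitivity paragraph gives.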

Additional observations from a re-analysis of the deposited data

Results flagged for a closer look

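In 50 groups of 4 libraries (10 genes in 5 genotypes), the library farthest from its group was compared with the range of that group, a test that chance trips in about 1 of 20 groups, or 2.5 of 50. It singled out 4 values. Control replicate 1 lay far above the other 3 controls for Kdr (93.5 CPM), Cdh5 (36.5 CPM) and Eng (97.5 CPM), and these 3 values come from 1 library. Cpt2KO replicate 2 lay below its 3 partners for Kdr, at 38.3 CPM beside 49.5 to 51.3 CPM.

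S1pr1 was singled out because the effect of Cpt2 loss on it differed with the state of Cpt1a and Cpt1b. The interaction was 1.54 on the log2 scale (SE 0.26, adjusted p = 0.00249 by edgeR), with 34.2 CPM in Control and 8.68 CPM in Cpt2KO, and 15.1 CPM in Cpt1DKO and 11.2 CPM in TKO.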

How the results depend on the processing

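Counts of the 10 genes called moved under some settings. DESeq2 called 3 in Cpt1DKO against Control and 2 in Cpt2KO against Cpt1DKO, where edgeR called 1 each. Without the filter on low counts both counts were 0, and with only the compared groups in the fit the first was 0. Without the 2 libraries of female pattern, Cpt2KO against Cpt1DKO had 2. Library totals as the only scaling, added after the data were seen, moved the median of all genes against Control by 0.10 (Cpt1DKO), 0.20 (Cpt2KO), 0.24 (TKO) and 0.48 (Cpt2PparaDKO). It gave 8 calls in Cpt2PparaDKO against Control, 0 in Cpt2KO against Cpt1DKO and 2 in Cpt2PparaDKO against Cpt2KO. The median of the 10 genes less that of all genes was 0.44, 0.10, 0.06 and 0.37 under it, and 0.45, 0.12, 0.07 and 0.38 with TMM. Higher calls made up 65.8%, 70.1%, 75.7% and 88.0% of calls under it, and 44.1%, 48.5%, 47.4% and 45.7% with TMM. Against other mutants it took that share from 52.5% to 70.4% (Cpt2KO against Cpt1DKO), 55.8% to 80.2% (TKO against Cpt1DKO) and 49.8% to 80.7% (Cpt2PparaDKO against Cpt2KO), and in the interaction from 52.5% to 39.5%, with 41.0% under upper-quartile scaling.

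Leaving out 1 library gave 0 to 6 calls in Cpt1DKO against Control, 0 to 5 in Cpt2PparaDKO against Control, 0 to 2 in Cpt2KO against Cpt1DKO, 0 to 1 in Cpt2PparaDKO against Cpt2KO and 0 to 1 in the interaction. The direction of Stab1 in Cpt2PparaDKO against Control turned to 0.024 with upper-quartile scaling, 0.43 with library totals, 0.013 without the filter and 0.036 without the libraries of female pattern, and ran from -0.11 to 0.14 on leaving out 1 library. Kdr turned to 0.11 in Cpt2KO and 0.17 in TKO with library totals, and ran from -0.23 to 0.43 and from -0.23 to 0.44 on leaving out 1 library. The median of the 10 genes in Cpt2KO against Control was -0.027 without the libraries of female pattern and ran from -0.016 to 0.44 on leaving out 1 library, and in TKO from -0.027 to 0.43. The cause was not tested.

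With a replicate block the count stayed at 1 in Cpt1DKO against Control (Pecam1 0.89, adjusted p = 0.0416 by edgeR) and at 1 in Cpt2KO against Cpt1DKO, and at 0 in the other comparisons. Libraries sharing a number showed little shared deviation over all genes (median correlation -0.03 to 0.04, single pairs -0.18 to 0.21). The number was therefore not used as a pairing, and whether such libraries share an origin was not tested. Of the other genes named, Sox7, Hbb-bs and Alas2 in Cpt2KO, Clec4f in TKO and Esm1 in Cpt2PparaDKO lost their calls against Control with the block. Over all genes, 869 calls in Cpt1DKO against Control became 1443 (DESeq2), 1442 (compared groups only), 1581 (without female pattern) and 288 to 1188 (leaving out 1 library). In TKO against Cpt1DKO, 729 became 1266 (DESeq2), 1391 (without female pattern), 1106 (library totals) and 278 to 898. In TKO against Cpt2KO, 8 became 54 (DESeq2), 16 (without female pattern), 5 (block, and compared groups only) and 3 to 10. In Cpt2KO against Cpt1DKO, 2212 became 1344 (compared groups only) and 1192 to 2517, and in Cpt2PparaDKO against Cpt2KO 3822 became 2495. In Cpt2PparaDKO against Control 5091 became 8454 (library totals), and in the interaction 423 became 941 (DESeq2), 973 (without female pattern) and 178 to 585.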
